A study of Homo sapiens with 6 samples.

Results

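FEV, ERG, ETV1, ETV4, ETV5, ELF3, EHF, SPDEF, ETS1 and ETS2 are genes of ETS transcription factors, and their RNA was compared between parental 22Rv1 cells and 22Rv1 cells derived from a liver metastasis. The genes were taken by name from the gene column of the deposited expression table, and the same gene identifiers were read in the count files. All 10 were found among 57500 genes. 22Rv1 is an established human prostate cancer cell line. One group of 3 libraries came from the parental line, called control and wild type in the labels, and the other group of 3 came from cells that the labels describe as derived from a metastasis in the liver (liver-derived below). Both groups were grown in RPMI medium with fetal bovine serum, and no treatment, allele or transgene is given in the labels for either. The labels do not give the host, the route by which the metastasis arose or the number of separate derivations, so growth in the liver and any other change that separates these lines cannot be told apart. The labels also do not say whether the libraries of a group were separate cultures, and the p-values measure only the spread among the libraries, which may be technical.

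ETS factors share a winged helix DNA-binding domain that recognises a GGAA core, and the human genome holds 28 of them, all of which were present in the files. Several are known from the prostate. ERG and, less often, ETV1, ETV4 or ETV5 are fused to androgen-regulated promoters in a large group of prostate cancers, and 22Rv1 is known as a line without the TMPRSS2 to ERG fusion. ELF3, EHF and SPDEF belong to the epithelial branch of the family. ETV1, ETV4 and ETV5 form the PEA3 branch, whose RNA is raised by ERK signalling and repressed by the protein Capicua (CIC). FEV, also called PET1, is best known as the factor that sets the serotonergic identity of neurons.

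The sequences below are the 250 bases before the RefSeq start site of 5 genes of the family that changed by more than 2-fold, shown because members of a family with a common DNA core moved in both directions. ETV7 and SPIC, which also changed by more than 2-fold, are not shown. The gene spans given with the values below come from the deposited count files and can begin further upstream than the RefSeq start, so that the windows of FEV, ELF5, ELF3 and EHF lie inside those spans and that of ETS2 lies before it. All are from GRCh38.p14, written 5′ to 3′ on the strand of the gene. Capitals mark each GGAA, or its reverse complement TTCC on the other strand. FEV (chr2:218985185-218985434, minus strand) and ELF5 (chr11:34511725-34511974, minus strand) fell, and ELF3 (chr1:202010337-202010586, plus strand), EHF (chr11:34624007-34624256, plus strand) and ETS2 (chr21:38804933-38805182, plus strand) rose. ELF5, a further gene of the epithelial branch, is shown because it lies beside EHF. For EHF and ETS2, of which 2 starts each are listed, the first is shown.
FEV: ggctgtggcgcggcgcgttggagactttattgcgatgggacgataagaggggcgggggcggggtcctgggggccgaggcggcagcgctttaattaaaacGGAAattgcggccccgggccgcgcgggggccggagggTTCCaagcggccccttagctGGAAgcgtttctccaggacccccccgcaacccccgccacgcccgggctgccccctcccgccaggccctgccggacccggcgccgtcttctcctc
ELF5: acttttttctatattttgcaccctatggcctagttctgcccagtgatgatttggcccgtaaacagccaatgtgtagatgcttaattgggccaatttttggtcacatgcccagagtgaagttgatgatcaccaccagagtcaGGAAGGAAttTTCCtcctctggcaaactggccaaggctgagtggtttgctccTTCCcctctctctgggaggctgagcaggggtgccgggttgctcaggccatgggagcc
ELF3: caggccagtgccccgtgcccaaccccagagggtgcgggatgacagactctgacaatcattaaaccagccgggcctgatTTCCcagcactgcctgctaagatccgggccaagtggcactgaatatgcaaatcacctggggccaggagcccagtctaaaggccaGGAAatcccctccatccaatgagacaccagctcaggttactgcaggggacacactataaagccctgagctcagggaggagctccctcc
EHF: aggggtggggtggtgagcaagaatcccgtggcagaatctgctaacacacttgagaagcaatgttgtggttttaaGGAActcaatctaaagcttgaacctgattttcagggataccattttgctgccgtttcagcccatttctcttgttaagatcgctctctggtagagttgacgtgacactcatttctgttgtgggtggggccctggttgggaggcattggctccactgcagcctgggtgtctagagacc
ETS2: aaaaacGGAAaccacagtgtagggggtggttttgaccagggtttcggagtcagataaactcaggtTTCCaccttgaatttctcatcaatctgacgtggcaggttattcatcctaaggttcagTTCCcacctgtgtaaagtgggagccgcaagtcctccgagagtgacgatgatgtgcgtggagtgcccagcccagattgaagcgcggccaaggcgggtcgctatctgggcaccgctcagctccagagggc
The window held 3 GGAA cores on both strands together in FEV, 4 in ELF5, 2 in ELF3, 1 in EHF and 3 in ETS2. Over the first listed promoter of 27305 genes, 92.8% held at least 1 such core, with a median of 3. The longer form CCGGAA, which contains the core, was found on either strand in 14.8% of those promoters and in none of the 5 shown. A match is a description of these letters and not of binding.

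Library totals ranged from 28395265 to 53275252 counts. Levels are given as TPM, transcript abundances scaled by gene length, which allow genes to be compared with each other, or as CPM, read counts scaled to TMM-adjusted library size, which allow libraries to be compared. Changes are log2 fold changes of liver-derived minus parental from the edgeR quasi-likelihood test on counts, with p-values adjusted by the Benjamini-Hochberg method over 19255 genes and a threshold of 0.05. Parental replicate 2 stood apart: in pairwise chi-square tests of gene counts, divided by the degrees of freedom, it gave 55.7 and 62.7 with its group, while every other pair within a group gave 2.26 to 3.15. Markers of luminal prostate cells were present throughout, with a summed level of 3490 to 3660 CPM in the parental and 3290 to 3350 CPM in the liver-derived libraries, and 0 of 9 were under 1 CPM in all libraries. Of 9 endothelial markers, 6 were under 1 CPM in every library, among them PECAM1, VWF, KDR, TEK and TIE1, and CDH5 had no reads; their sum ranged from 8.27 to 9.17 and from 6.01 to 6.70 CPM. The sum of 9 leukocyte markers ranged from 12.9 to 16.6 and from 12.7 to 21.7 CPM, with CD3E at 0 in every library. The sum of 8 fibroblast markers ranged from 21.8 to 25.2 and from 20.4 to 21.9 CPM, most of it COL1A1 (17.5 and 18.3 CPM), while LUM (1.75 and 0.0674 CPM) and COL3A1 (1.66 and 0.79 CPM) were called lower. The sum of 12 hepatocyte markers ranged from 43.5 to 54.3 and from 65.7 to 69.3 CPM, with 10 of the 12 under 1 CPM in every library and FGA at 0. Most of that sum was ALB (47.7 and 65.8 CPM), which was called higher with APOA1, and ASGR1 (1.47 and 0.178 CPM) was called lower. The part of these cell types in the results was not tested.

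Among the 10 genes, 4 rose (ELF3, EHF, ETS2 and ETV4), 1 fell (FEV), 4 did not pass (ETV1, ETV5, SPDEF and ETS1) and 1 (ERG) had too few reads to be tested. Across all genes tested, 17.5% were called higher, 21.3% lower and 38.8% in either direction. The groups did not overlap for 6 of the 9 tested members, beside 54.0% of all genes tested. The median log2 fold change was 0.00 over the 9 members and -0.008 over all genes. Without parental replicate 2, 5 of the members were called higher and 3 lower, beside 28.8% and 31.0% of all genes in that fit (59.8% in either direction). The added calls were ETV1 and ETV5 as lower and SPDEF as higher. With the replicate number as a block, 3 were called higher and 1 lower, beside 16.5% and 20.2% of all genes (36.6% in either direction). A change of at least 2-fold in addition to the test was met by 3 members upward and 1 downward, beside 4.49% and 9.32% of all genes.

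**Figure D1:**
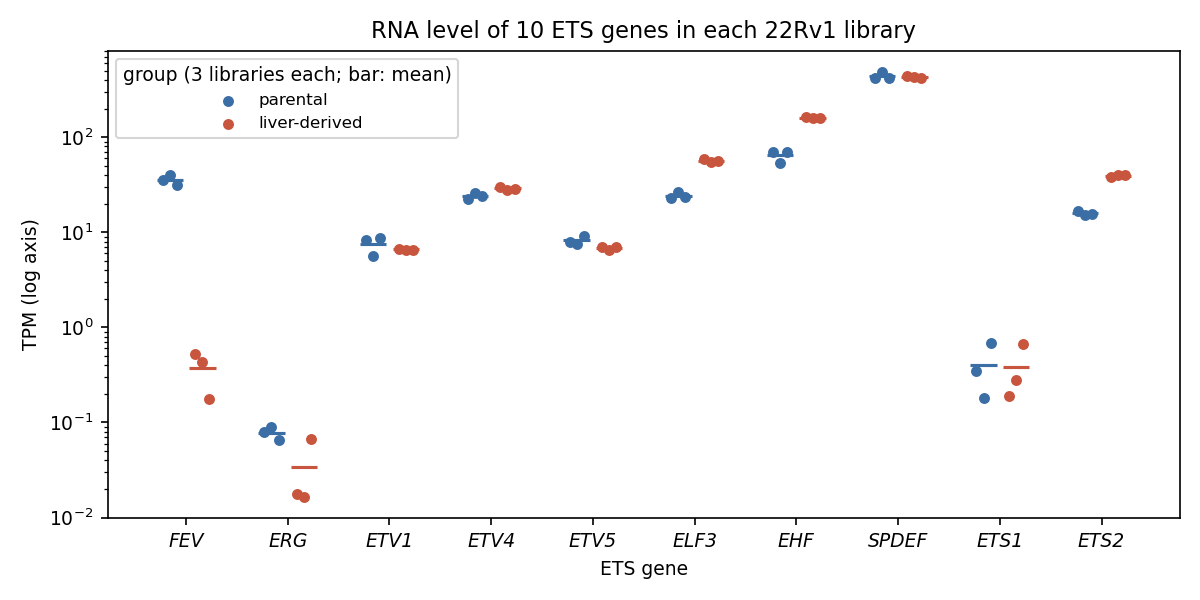
TPM of the 10 genes on a log axis, with 1 point per library, parental in blue and liver-derived in red, and a bar at each group mean. FEV drops from 31.8 to 39.8 TPM to 0.176 to 0.526 TPM, ELF3, EHF and ETS2 are higher in all 3 liver-derived libraries, and SPDEF overlaps between groups between 416 and 486 TPM.

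FEV showed the largest change of the family. FEV (ENSG00000163497, chr2:218981087-218985657, GRCh38, minus strand) stood at 35.6, 39.8 and 31.8 TPM in parental replicates 1 to 3 and at 0.526, 0.430 and 0.176 TPM in the liver-derived replicates. The groups lay far apart, and the liver-derived values rested on 16, 7 and 5 reads against 923 to 1078 reads in the parental libraries. The group means were 35.7 ± 4.03 and 0.377 ± 0.181 TPM (SD, n = 3 each). The log2 fold change was -6.53 (SE 0.25, edgeR adjusted p = 1.81e-07), or 92.3-fold lower, the 12th largest fall among 19255 genes. In bulk RNA, fewer cells that express a gene and less RNA per cell cannot be told apart. In the parental cells FEV was the 6th highest ETS gene by TPM, overlapping with ELF4 above it and GABPA below it, and in the liver-derived cells it was the 23rd, overlapping with ETS1 above it and ELF5 below it.

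Genes next to FEV on chromosome 2 fell as well. The gene nearest on one side, CRYBA2 (a crystallin gene, with a gap of 4.5 kb), fell from 10.7 ± 0.899 to 0.288 ± 0.0847 CPM (by -5.24 on the log2 scale, SE 0.18, edgeR adjusted p = 1.15e-07). The nearest tested protein-coding gene on the other side, CDK5R2, which encodes a neuronal activator of the kinase CDK5 and lies 18.9 kb away, fell from 15.5 ± 1.86 to 2.20 ± 0.234 CPM (-2.81, SE 0.13). These belong to an unbroken run of 9 tested genes, all called lower, that spans 259.8 kb (chr2:218781749-219041527). The other genes of the run, named after their values were seen, were CYP27A1 (-1.17), WNT10A (-2.10), CDK5R2-AS1 (-3.55), KRT8P30 (-4.15), ENSG00000224090 (-1.82) and CFAP65 (-2.48). CDK5R2-AS1 overlaps CDK5R2 and KRT8P30, and ENSG00000224090 overlaps CFAP65, so these are not separate loci, and without a known strand setting their reads cannot be told apart where exons are shared. CYP27A1, at 0.322 and 0.147 CPM, was the sole gene of the run to miss the threshold in any of the 21 alternatives in which the run could be tested in whole or in part. Within 500 kb of FEV, 35 other genes were tested, of which 7 were called higher, 10 lower and 18 did not pass. Their median log2 fold change was -0.13. The run was bounded by the calls themselves, so the genes next to its ends are not lower by construction. Of the 27 genes of that window outside the run, 7 were called higher, 2 lower and 18 did not pass, with a median of 0.04. Over all 1215 tested genes of chromosome 2, 15.4% were higher and 22.6% lower, with a median of 0.00.

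**Figure D2:**
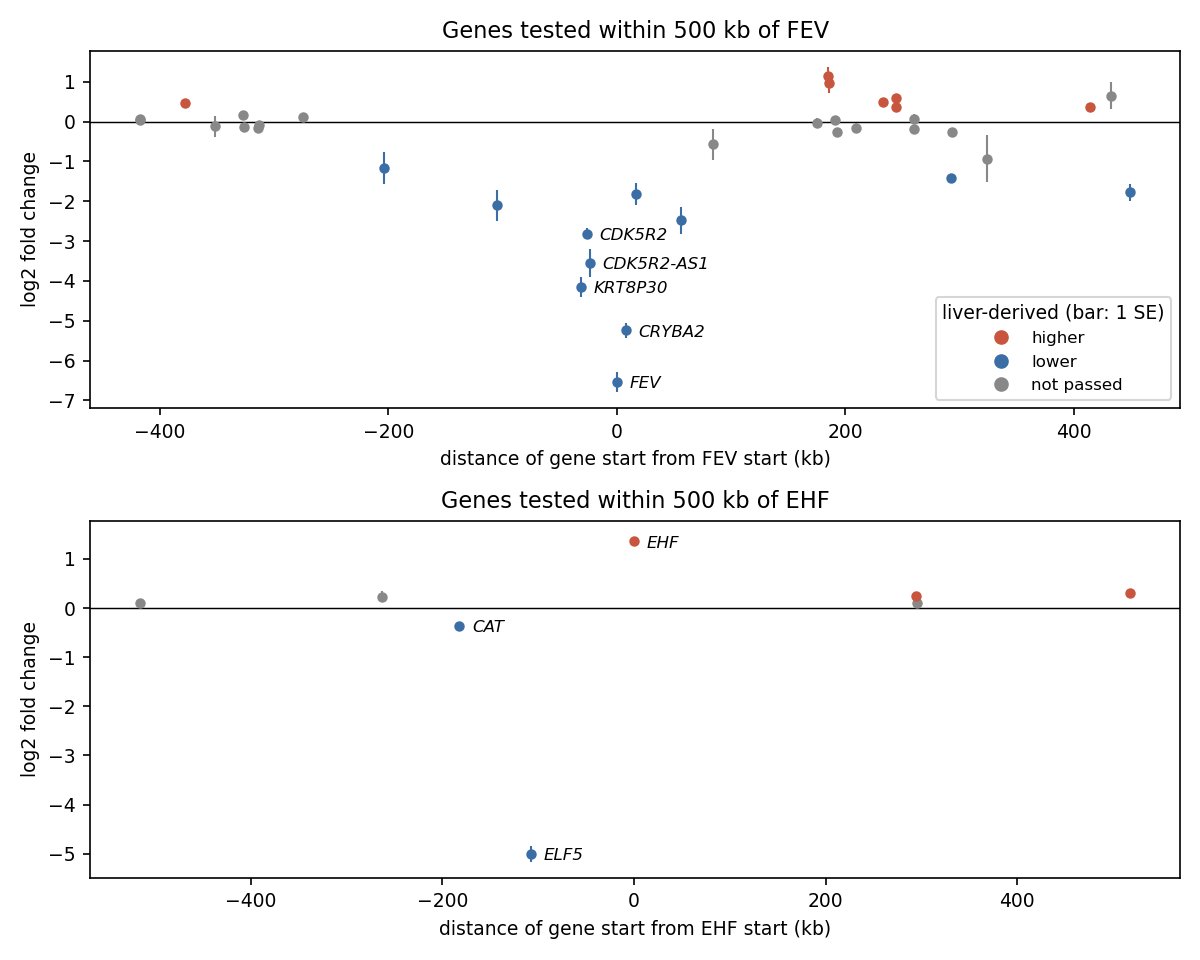
Log2 fold change with 1 SE of each tested gene against the distance of its start from the start of FEV (upper plot) or EHF (lower plot) in kb, coloured by call. The genes around FEV from CYP27A1 to CFAP65 are all lower, deepest at FEV with -6.53, and EHF at 1.36 lies beside ELF5 at -5.00.

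The genes with the profile most like that of FEV lay on other chromosomes. Likeness was the root mean square difference of log2 CPM over the 6 libraries after centring on the parental mean, among protein-coding genes of at least 1 CPM in the parental mean. The 5 nearest were LHFPL4 (difference 0.32), BCHE (0.50), CDH10 (0.57), XKR7 (0.61) and DDX53 (0.61). Their levels were 4.99 to 29.2 CPM in the parental and 0.0512 to 0.493 CPM in the liver-derived cells. With 2 groups that stand this far apart, the measure mainly matches the size of the fall.

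Genes of the serotonergic program, in which FEV acts in neurons, were mostly at low levels. Of 18 listed genes, 10 had enough reads to be tested. Among these 10, 2 were higher and 2 lower, beside 17.5% and 21.3% of all genes tested, and 6 did not pass. The median log2 fold change was -0.16. GATA2, a zinc finger factor that acts upstream in serotonergic neurons and also in the prostate, fell from 246 ± 30.2 to 33.9 ± 1.16 CPM (-2.86, edgeR adjusted p = 1.15e-07). MAOA, the enzyme that oxidises serotonin, rose from 102 ± 5.05 to 460 ± 2.44 CPM (2.17, edgeR adjusted p = 5.33e-08), and GATA3, a related zinc finger factor, rose from 7.77 to 9.61 CPM (0.30), a call that held in 11 of 21 alternatives. HTR1A, a serotonin receptor gene at 0.379 and 0.0513 CPM, was the other gene called lower and is named after its values were seen. TPH2, the neuronal enzyme that starts serotonin synthesis, had no reads, and DDC, which makes serotonin from its precursor, stood at 11.6 and 9.94 CPM (-0.22, edgeR adjusted p = 0.0667). Without parental replicate 2, 4 of the list were lower, in a fit where 31.0% of all genes were lower. The number higher was 1 without parental replicate 1, liver-derived replicate 1 or liver-derived replicate 2, or with the replicate block. Over all 21 alternatives, 1 or 2 were higher and 1 to 4 lower.

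The epithelial factors ELF3 and EHF rose, and SPDEF did not pass the test. ELF3 (ENSG00000163435, chr1:202007945-202017188, plus strand), an epithelial factor also known from inflammation, stood at 23.0, 26.4 and 23.6 TPM in the parental replicates and at 59.1, 55.3 and 56.1 TPM in the liver-derived replicates. Every liver-derived library lay above every parental one. The log2 fold change was 1.26 (SE 0.09, edgeR adjusted p = 1.03e-05), or 2.39-fold higher. ELF3 shares 554 exon bases with ELF3-AS1 on the opposite strand, which held 50 to 144 reads, and 664 with ENSG00000249007 on the same strand, which held 3 to 31, both few beside the 2178 to 6308 reads of ELF3.

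EHF (ENSG00000135373, chr11:34621093-34661057, plus strand), which is known to keep prostate epithelial cells differentiated, stood at 69.7, 53.3 and 70.4 TPM in the parental and at 162, 159 and 161 TPM in the liver-derived replicates. The groups did not overlap, and the parental spread came mostly from replicate 2. The log2 fold change was 1.36 (SE 0.09, edgeR adjusted p = 4.54e-06), or 2.57-fold higher. EHF thereby passed ERF and ELK1 to become the second most abundant ETS RNA of the liver-derived cells, with no overlap with its neighbours in that order.

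ELF5, which lies 107.3 kb from EHF on the opposite strand and is known from mammary and other secretory epithelia, moved the other way. It stood at 7.19, 7.16 and 7.44 TPM in the parental and at 0.240, 0.280 and 0.160 TPM in the liver-derived replicates, the latter from 10 to 16 reads. This was a log2 fold change of -5.00 (SE 0.16, edgeR adjusted p = 7.91e-08). CAT, the catalase gene on the far side of ELF5, changed by -0.36 (edgeR adjusted p = 0.00202), and APIP on the far side of EHF by 0.10 (edgeR adjusted p = 0.395). Among the 7 tested genes within 500 kb of EHF, which include ELF5, 2 were higher, 2 lower and 3 did not pass. Over all genes tested, 17.5% were higher and 21.3% lower.

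SPDEF (ENSG00000124664, chr6:34537802-34556333, minus strand) was the most abundant ETS RNA in both groups, at 416, 486 and 421 TPM in the parental and 443, 427 and 422 TPM in the liver-derived replicates. The groups overlapped, with a log2 fold change of 0.00 and an approximate 95% interval from -0.19 to 0.19 (edgeR adjusted p = 0.995). Without parental replicate 2 it was called higher by 0.12 (edgeR adjusted p = 5.63e-05).

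Secretory and epithelial genes connected with SPDEF and EHF moved both ways. Of 21 listed, 18 were tested, and 6 were higher and 8 lower, beside 17.5% and 21.3% of all genes tested. The other 4 did not pass, and the median was -0.16. KLF5, an epithelial zinc finger factor, rose from 22.3 ± 2.00 to 53.4 ± 0.944 CPM (1.26 on the log2 scale), and SPINK1, a secreted protease inhibitor, rose from 12.4 ± 1.46 to 24.2 ± 0.741 CPM (0.96). FOXA3, a forkhead factor of secretory cells, fell from 1.81 ± 0.423 to 0.269 ± 0.0554 CPM (-2.68). OVOL1, an epithelial zinc finger factor, fell from 8.63 ± 1.31 to 1.97 ± 0.310 CPM (-2.11), and MUC1, a membrane mucin, fell from 1.12 ± 0.183 to 0.36 ± 0.0628 CPM (-1.61).

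The PEA3 genes ETV1, ETV4 and ETV5 differed little between the groups. ETV4 (ENSG00000175832, chr17:43527844-43579620, minus strand) stood at 22.6, 26.0 and 24.2 TPM in the parental and 30.3, 27.6 and 28.9 TPM in the liver-derived replicates. The groups did not overlap, and the log2 fold change was 0.29 (SE 0.10, edgeR adjusted p = 0.0395), or 1.22-fold higher. It shares 68 exon bases with DHX8 on the opposite strand, which held 1999 to 4059 reads. That call was lost without any 1 library other than parental replicate 2 (log2 fold change from 0.22 to 0.34, edgeR adjusted p from 0.0633 to 0.151), with the replicate number as a block (0.30, edgeR adjusted p = 0.0603), and with upper-quartile scaling (0.28, edgeR adjusted p = 0.0526) or library size alone (0.24, edgeR adjusted p = 0.0549).

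ETV5 (ENSG00000244405, chr3:186046308-186110318, minus strand) stood at 7.98, 7.54 and 9.19 TPM in the parental and 7.02, 6.47 and 7.06 TPM in the liver-derived replicates. Its groups did not overlap, yet the log2 fold change of -0.22 (SE 0.09) did not pass (edgeR adjusted p = 0.0825). ETV1 (ENSG00000006468, chr7:13891228-13991425, minus strand) stood at 8.25, 5.70 and 8.62 TPM in the parental and at 6.67, 6.58 and 6.59 TPM in the liver-derived replicates. The liver-derived values lay inside the parental range, which parental replicate 2 set at its low end, and the log2 fold change was -0.14 (SE 0.12, edgeR adjusted p = 0.417). Without parental replicate 2, ETV1 (log2 fold change -0.27, edgeR adjusted p = 4.88e-05) and ETV5 (-0.24, edgeR adjusted p = 0.00438) were called lower. The summed level of the 3 genes was 40.0 ± 1.74 TPM in the parental and 42.4 ± 1.70 TPM in the liver-derived cells (exact permutation p = 0.2, two-sided, where 0.1 is the smallest that 3 against 3 libraries can give).

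Genes that act on ETS proteins and genes of the ERK response changed in both directions. Of 16 regulators and partners, 2 were higher and 5 lower, beside 17.5% and 21.3% of all genes tested. The other 9 did not pass, and the median was 0.04. TRIB1, an adaptor that brings substrates to the ubiquitin ligase COP1, fell from 91.9 ± 4.42 to 27.4 ± 0.312 CPM (log2 fold change -1.75), whereas COP1 itself, the ligase for ETV1, ETV4 and ETV5, stood at 51.1 and 53.6 CPM (0.07, edgeR adjusted p = 0.480). CIC, the repressor of the PEA3 genes, fell from 109 ± 15.7 to 85.6 ± 0.471 CPM (-0.35, edgeR adjusted p = 0.0227; a call lost with any single liver-derived library left out), and its partner ATXN1 rose from 10.9 ± 0.745 to 16.4 ± 0.757 CPM (0.59). DET1, a component of COP1 ligase complexes, rose by 0.48 on the log2 scale, and the acetyltransferase gene EP300 fell by 0.30. ATXN1L (-0.22) and CREBBP (-0.25), named after their values were seen, were also lower, and passed in 13 and 16 of 21 alternatives. If parental replicate 2 was left out, 4 were higher; if any single liver-derived library was left out, 2 were lower; with the replicate number as a block 3 were lower.

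Of 16 genes of ERK feedback and response, 7 were higher and 3 lower, beside 17.5% and 21.3% of all genes tested. The other 6 did not pass, and the median was 0.14. DUSP4, a phosphatase of ERK, went up from 15.2 ± 0.883 to 57.9 ± 1.56 CPM (by 1.93 on the log2 scale, SE 0.08), and CCND1, the gene of cyclin D1, rose from 2840 ± 91.5 to 4500 ± 36.0 CPM (0.66); it shares exon bases with LTO1 on the opposite strand. EGR1, an immediate early factor, fell from 16.9 ± 0.394 to 7.85 ± 0.582 CPM (-1.10), PHLDA1 from 14.9 to 8.08 CPM (-0.88) and SPRED3, a Ras inhibitor, from 2.16 to 1.24 CPM (-0.82). DUSP6, a phosphatase often read as a sign of ERK output, stood at 4.50 and 4.35 CPM (-0.06, edgeR adjusted p = 0.792).

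ERG was nearly silent in both groups. ERG (ENSG00000157554, chr21:38380027-38661780, minus strand) held 8, 9 and 7 reads in the parental and 2, 1 and 7 reads in the liver-derived replicates, or 0.0650 to 0.0898 and 0.0166 to 0.0664 TPM. The groups overlapped, and the gene was left out by the filter on low counts. Where it was tested, with no filter, the log2 fold change was -1.08 (SE 0.70, edgeR adjusted p = 0.315). No difference was detectable at this depth.

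Most genes called among those whose promoters drive ETS fusions in prostate cancer, many of them androgen-regulated, were lower. Of 9 such partner genes, 1 was higher and 5 lower, beside 17.5% and 21.3% of all genes tested. The other 3 did not pass, and the median was -0.37. The 5 were KLK2, from 124 ± 12.7 to 13.6 ± 0.711 CPM (log2 fold change -3.18), TMPRSS2, from 49.9 ± 3.60 to 8.37 ± 0.592 CPM (-2.58), SLC45A3, from 124 ± 15.0 to 36.6 ± 1.16 CPM (-1.76), NDRG1, from 51.4 ± 4.22 to 19.2 ± 1.14 CPM (-1.42), and HERPUD1, from 136 ± 1.47 to 105 ± 3.72 CPM (-0.37). The gene called higher was ACSL3 (0.35), named after its values were seen. The number called higher was 3 if parental replicate 2 was left out, in a fit where 28.8% of all genes were higher. It was 0 with any single liver-derived library left out or with library size alone. Over all 21 alternatives, 0 to 3 were higher and 4 to 6 lower.

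Of 14 genes known to be raised in fusion-positive prostate cancers, 12 were tested. Among these 12, 3 were higher and 3 lower, beside 17.5% and 21.3% of all genes tested. The other 6 did not pass, and the median was -0.10. F5, the gene of coagulation factor V, rose from 1.42 ± 0.325 to 7.81 ± 0.176 CPM (2.46), CACNA1D, a calcium channel gene that shares exon bases with CHDH, rose from 5.39 to 12.5 CPM (1.22), and CRISP3, a secreted protein gene, rose from 0.681 to 1.58 CPM (1.22). NCALD, a neuronal calcium sensor gene, fell from 1.83 to 0.119 CPM (-4.03), and HLA-DMB, a gene of antigen loading, fell from 6.36 to 2.53 CPM (-1.34). VIM, the vimentin gene, was also lower (-0.89), a call lost without parental replicate 2, and is named after its values were seen. TDRD1, which marks ERG-positive tumours, had no reads.

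ETS2 rose and ETS1 was near the detection limit. ETS2 (ENSG00000157557, chr21:38805307-38824955, plus strand), a broadly expressed target of ERK phosphorylation, stood at 16.8, 15.2 and 15.4 TPM in the parental and at 38.4, 39.7 and 40.1 TPM in the liver-derived replicates. The groups did not overlap, and the spread in each was small beside the gap between them. Its log2 fold change was 1.36 (SE 0.08, edgeR adjusted p = 1.43e-06), or 2.56-fold higher. Genes of chromosome 21 were higher in general: of 225 tested, 56.0% were called higher and 12.0% lower, with a median log2 fold change of 0.54. GABPA, the third ETS gene of that chromosome with ERG and ETS2, rose from 50.7 ± 11.4 to 79.0 ± 1.76 CPM (0.64, SE 0.15, edgeR adjusted p = 0.00828); it shares 413 exon bases with ATP5PF on the opposite strand, which held 4475 to 8156 reads. How much of the rise of ETS2 goes with the chromosome was not tested.

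ETS1 (ENSG00000134954, chr11:128458761-128587558, minus strand), a factor of lymphoid, endothelial and invasive cells, stood at 0.350, 0.180 and 0.690 TPM in the parental and 0.189, 0.282 and 0.665 TPM in the liver-derived replicates. The highest value of each group was its replicate 3, with 70 and 66 reads against 16 to 33 in the other 4 libraries, and the groups overlapped. The log2 fold change was -0.04 with an approximate 95% interval from -1.09 to 1.02 (edgeR adjusted p = 0.966). That interval takes in changes of up to about 2-fold in either direction. Its neighbour FLI1, 99.0 kb away, stood at 0.209 ± 0.0584 and 0.201 ± 0.0532 TPM.

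Over the whole family of 28 genes, 25 were tested, and 7 were higher, 6 lower and 12 did not pass. The shares over all genes tested were 17.5% higher and 21.3% lower. Of the 18 genes beside the 10 described, 16 were tested, 3 were higher, 5 lower and 8 did not pass, with a median of -0.19. Besides GABPA, the risers were ELF1, an ELF factor known from blood cells, from 27.4 ± 3.72 to 40.6 ± 1.01 CPM (log2 fold change 0.57; it shares 167 exon bases with WBP4 on the opposite strand), and ETV6, a repressor (0.29). Besides ELF5, the fallers were ETV7, a factor close to ETV6, from 4.54 ± 0.466 to 2.03 ± 0.274 CPM (-1.15), ELK3, a ternary complex factor, from 6.37 ± 0.616 to 4.58 ± 0.356 CPM (-0.47), SPIC (-2.69) and ELF4 (-0.40). ETV6, SPIC and ELF4 are named after their values were seen. SPIC held 44, 27 and 58 reads in parental replicates 1 to 3 and 8, 5 and 4 reads in the liver-derived replicates. The call of ETV6 (edgeR adjusted p = 0.0446) held in 8 of 21 alternatives, and was lost with the replicate block and without any 1 library other than parental replicate 2. Without parental replicate 2, 4 of the 18 genes were higher and 8 lower, beside 28.8% and 31.0% of all genes in that fit.

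**Figure D3:**
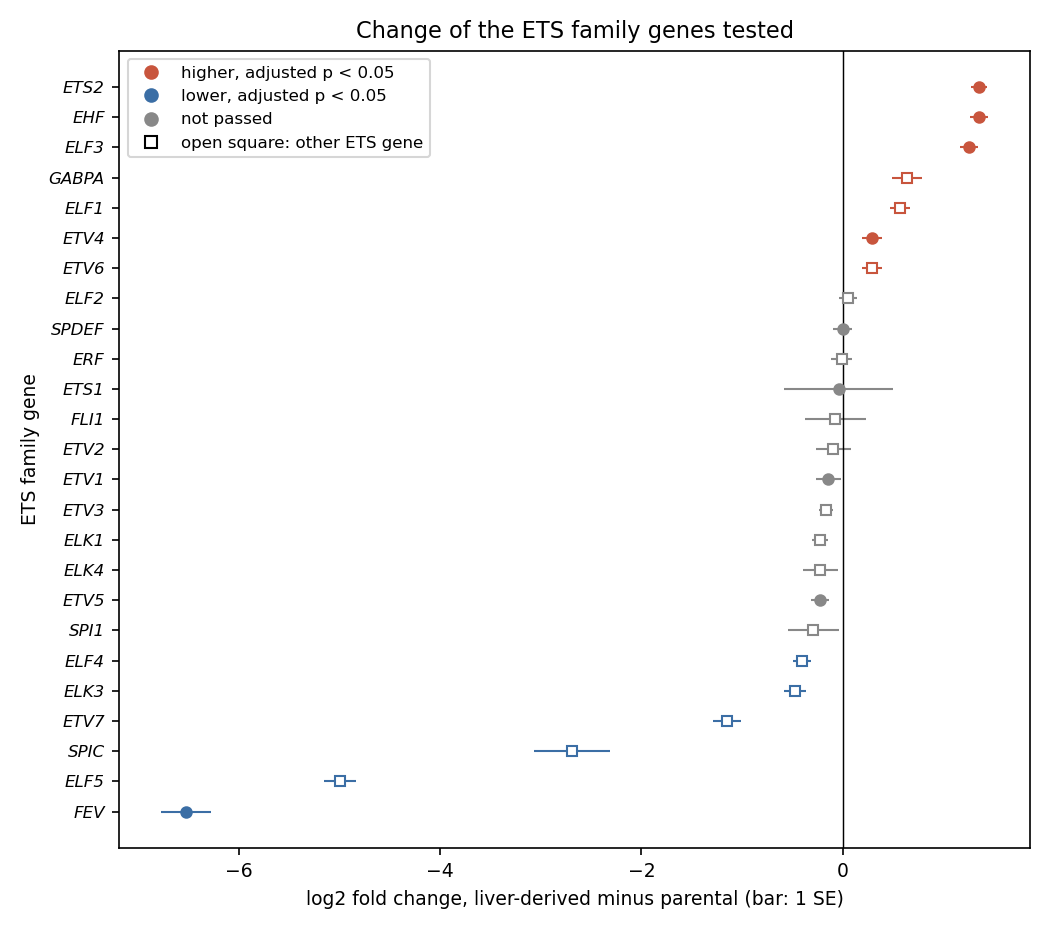
Log2 fold change of liver-derived minus parental with 1 SE for the 25 ETS genes tested, filled circles for the genes described one by one and open squares for the other 16, red for higher, blue for lower and grey for not passed. FEV at -6.53 and ELF5 at -5.00 stand far below the rest, and ETS2, EHF and ELF3 form the upper end.

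The summed level of all ETS genes differed less, in proportion, than the levels of FEV, ELF5, ELF3, EHF or ETS2. It was 1010 ± 25.3 TPM in the parental and 1100 ± 14.1 TPM in the liver-derived cells (SD, n = 3 each), a ratio of 1.09, and the groups did not overlap (exact permutation p = 0.1, two-sided, the smallest that 3 against 3 libraries can give). SPDEF, the largest part at 441 and 431 TPM, differed less than the sum. It made up 43.7 ± 2.71% of the sum in the parental and 39.3 ± 0.582% in the liver-derived cells. The share of EHF went from 6.41 ± 1.10% to 14.6 ± 0.099%, that of ELF3 from 2.41 ± 0.118% to 5.18 ± 0.118% and that of ETS2 from 1.57 ± 0.118% to 3.59 ± 0.126%. FEV went from 3.54 ± 0.333% of ETS RNA to 0.0344 ± 0.0163%. ELF3 and EHF together went from 88.8 ± 7.90 to 217 ± 3.46 TPM (ratio 2.45). SPDEF and ELF5 of the same branch are not in this sum. Both summed genes rose without overlap of the groups, so a permutation test could only give its smallest value and is not used.

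**Figure D4:**
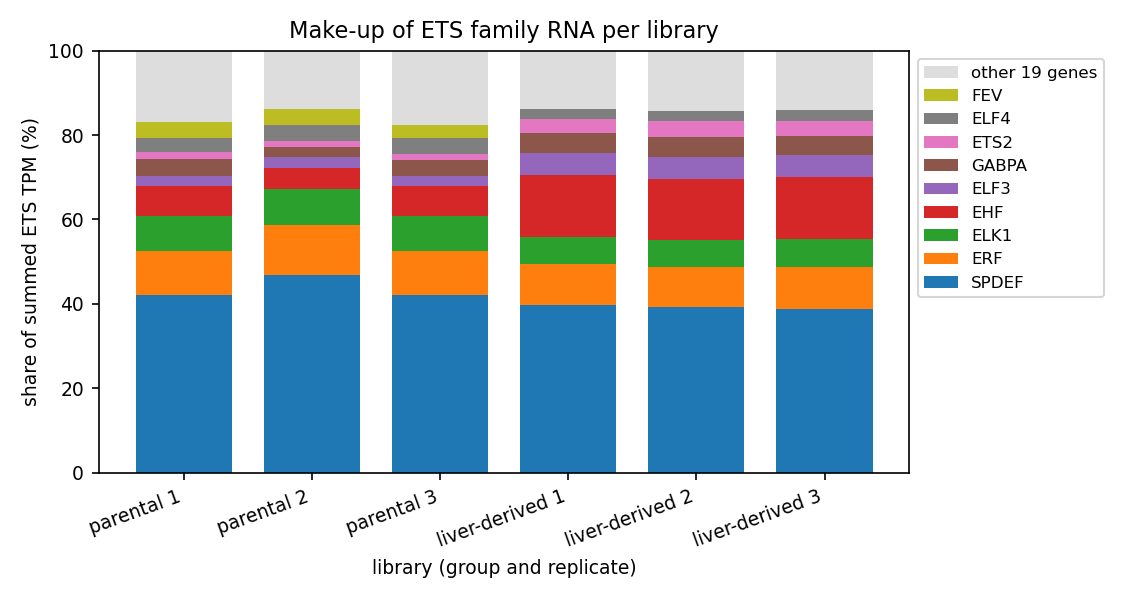
Share of the summed TPM of the 28 ETS genes taken by each of 9 genes and by the other 19 together, as stacked bars from 0 to 100% for each of the 6 libraries. SPDEF takes the largest share in every library, EHF, ELF3 and ETS2 take more in the liver-derived libraries, and FEV is visible in the parental libraries alone.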

How the data were processed

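RNA of parental and liver-derived 22Rv1 cells, 3 libraries each, was polyA-selected and sequenced as pairs on a NovaSeq, per the labels' protocols. Reads were handled with Trimmomatic 0.36, STAR 2.5.2b and featureCounts of Subread 1.5.2 on GRCh38, per the submitters' processing notes; for the annotation release and the strand setting, nothing is stated in the labels or notes. The authors deposited raw counts per gene and a TPM table; TPM recomputed here from counts and gene lengths differed by at most 4.82e-05 in relative size, so they are the same measurement. The table ended in 391182 rows without a gene, left out. For parental replicate 2 those rows hold spreadsheet errors, so its column was recorded as another unit in the deposited file; its gene values are TPM.

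The test on counts was that of edgeR 4.0.16 (run in R 4.3.3; filterByExpr, TMM, robust quasi-likelihood, group as the only term), adjusted over 19255 genes. Genes were matched by symbol; promoters come from RefSeq, and 7 of the 10 genes had one. GENCODE 29 gave biotype and GC content. The labels share replicate numbers but name no pairing, and none was used in the main fit. As deviations from their group mean, same-numbered libraries correlated by -0.008 to 0.072 and differently numbered ones by -0.04 to 0.03. The outlying parental replicate 2 enters every parental deviation, so this check cannot exclude pairing. On simulated counts edgeR recovered 79.1% of 67 genes changed 1.5-fold, 97.0% of 67 changed 2-fold and 100% of 66 changed 4-fold, with 11 false calls among 19224. The simulation gave every gene the same biological spread, changed no gene with few reads and had no library that stood apart. It changed 200 genes, whereas 38.8% of the genes tested were called in the real data. These rates may therefore not hold for the real libraries, where parental replicate 2 stood apart and some genes had few reads. The members and gene lists were chosen with earlier results of these data known. All 10 members are described; from other lists up to 5 called genes of at least 1 CPM with the largest change are named, and exceptions are marked. Alternatives were other scalings (RLE, upper quartile, none) and filters, DESeq2 1.42.0, limma-voom and limma on log2(TPM + 1) or log2(TPM + 0.1) (limma 3.58.1), each library left out, both second replicates left out, the replicate block, a GC correction with and without it, and glmTreat. They were applied to the other lists after the data were seen.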

Additional observations from a re-analysis of the deposited data

How the results depend on the processing

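FEV stayed lower and past the threshold in all 21 alternatives, with log2 fold changes from -6.98 to -4.74; the smallest in size came from limma on log2(TPM + 1), where the added 1 compresses low values. EHF (1.27 to 1.41), ETS2 (1.26 to 1.38) and ELF3 (1.19 to 1.39) stayed higher and past the threshold in all 21. ETV4 stayed higher in all 21 and passed in 11; ETV1 and ETV5 stayed lower in all 21 and passed in 4 and 5; SPDEF passed, as higher, in 4; ETS1 passed in 0 of the 18 in which it was tested (adjusted p from 0.312 to 1.0). The number of members called lower was 2 (and 3 higher) with library size alone, beside 24.6% of all genes lower and 14.9% higher. It was 3 (and 5 higher) with the GC correction (29.2% of all genes lower, 27.4% higher), with the GC correction and the replicate block (28.7%, 26.5%), and with both libraries numbered 2 left out (30.3%, 29.5%). With 1 library left out at a time, it ranged from 1 to 3 and the number called higher from 3 to 5, beside 16% to 31.0% of all genes lower and 12.3% to 28.8% higher. With the replicate number as a block, 3 were called higher and 1 lower, the lost call being ETV4. FEV was then at -6.5 (edgeR adjusted p = 4.76e-09). The correlation of same-numbered libraries could not settle whether they were paired. The summed ETS level had a ratio of 1.17 without SPDEF. The cause of these shifts was not tested. Levels of ERG, ETS1, FLI1 and SPIC, and of FEV and ELF5 in the liver-derived cells, rest on under 100 reads per library. Those of ETV7 rest on 56 and 86 reads in liver-derived replicates 2 and 3.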

Other observations

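ETS1 was highest in replicate 3 of both groups, though in the parental cells by under 2-fold over replicate 1 (1.33 and 0.679 CPM). Of 19255 genes, 9 stood more than 2-fold above both other libraries of their group in replicate 3 of the parental and also of the liver-derived cells, against 0 genes for replicate 1 and 3 genes for replicate 2. The 9, named after their values were seen, were STC1, PRSS2, COL6A3, COL4A1, PXDN, FBLN2, EPHB1, MYH16 and AXL. STC1, the gene of a secreted glycoprotein, stood at 4.20, 3.15 and 16.2 CPM in the parental replicates and at 1.91, 1.61 and 13.7 CPM in those from the metastasis line. COL6A3, a collagen gene of connective tissue, stood at 0.947, 0.859 and 1.99 CPM and at 0.364, 0.430 and 3.77 CPM, and AXL, a receptor kinase gene, at 0.618, 0.507 and 1.36 CPM and at 0.728, 0.430 and 1.61 CPM. The 3 genes of replicate 2, MYH1, TNNT3 and ACTA1, are genes of skeletal muscle, and ACTA1 stood at 1.42, 3.46 and 1.67 CPM in the parental replicates and at 2.72, 5.51 and 2.37 CPM in those from the metastasis line.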
